A study of Mus musculus with 9 samples.

Results

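The genes described here are 5 components of the Hedgehog pathway, taken from the deposited table by gene symbol. They are Boc, Cdon and Gas1, which encode cell-surface co-receptors, Smo, which encodes the membrane transducer Smoothened, and Sufu, which encodes an intracellular inhibitor. All 5 were found, each as 1 row of the 55357 in the table, and all 5 were among the 15046 genes that passed the filter on low counts. Their levels were compared across 3 keratinocyte populations sorted from mouse back skin, with 3 poly(A) RNA-seq libraries each.

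All mice were C57BL/6, carried both TNC-CREER (a tamoxifen-inducible Cre recombinase expressed from Tnc, the Tenascin-C gene) together with the reporter tdTomato, and received tamoxifen at 100 µg per g body weight on postnatal days 51 and 52. Skin was taken on postnatal day 60, so the reporter marks cells that had Tnc-driven Cre at the time of tamoxifen and the progeny of such cells. Every gate required the epithelial protein EPCAM and integrin α6. To these the Touchdome gate added SCA1 and the reporter, the HF (hair follicle) gate took cells lacking both, and the IFE (interfollicular epidermis) gate took cells with SCA1 but no reporter. Nothing in the labels tells whether replicates are different mice or pools of mice. The p-values therefore reflect library-to-library spread, part of which may be technical.

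Total expected counts (reads assigned to genes) ranged from 9295059 to 28249763 per library. The sorts were checked against their markers: Tnc stood at 200.4 to 288 CPM in Touchdome, 40.6 to 56.9 CPM in HF and 1.13 to 7.16 CPM in IFE libraries, and Ly6a, which encodes SCA1, at 104 to 141 CPM in Touchdome, 0.422 to 1.90 CPM in HF and 112 to 180 CPM in IFE. CPM are counts scaled to a library of 1000000 after TMM scaling of library sizes. Krt1 and Krt10, listed with Ly6a as interfollicular genes, were higher in every Touchdome library than in every IFE library. Krt1 was at 1834 to 2459 CPM in Touchdome, 1301 to 1680 CPM in IFE and 183.4 to 252.9 CPM in HF. Krt10 was at 3736 to 5100 CPM in Touchdome, 2449 to 3515 CPM in IFE and 776.2 to 999.3 CPM in HF. The levels of 4 touch dome genes (Tnc, Krt17, Cd200 and Gli1) were also summed. The sum was 1795 to 2283 CPM in Touchdome, 1771 to 2020 CPM in HF and 271 to 329 CPM in IFE. It did not separate Touchdome from HF, and most of it was Krt17 (1526 to 1883 CPM in Touchdome, 1373 to 1722 CPM in HF). Cd200 was lower in Touchdome (17.01 to 32.88 CPM) than in HF (112.2 to 147.2 CPM). Gli1 was also lower, at 51.98 to 94.39 CPM in Touchdome and 98.22 to 196.8 CPM in HF. Of the 4 genes, only Tnc was higher in every Touchdome library than in every HF library. The keratinocyte genes Krt5, Krt14, Trp63, Itga6 and Epcam were present in every library, and of 7 Merkel cell genes Atoh1 and Sox2 had no counts in any library. Other genes of that list had counts: the 7 summed to 1.52 to 10.6 CPM in Touchdome, 3.37 to 3.997 CPM in HF and 0.114 to 0.316 CPM in IFE, and Krt8 reached 7.16 CPM in Touchdome replicate 1. Among the Touchdome libraries, 1 stood apart in follicle markers. Touchdome replicate 3 had more RNA of 4 of 5 follicle markers (Cd34, Lhx2, Sox9 and Lgr5) than the other Touchdome libraries: Cd34 was at 98.8 CPM in it, against 20.1 and 23.8 CPM in Touchdome replicates 1 and 2, and Lgr5 at 52.7 CPM against 12.5 and 10.99 CPM. The exception was Krt15, the most abundant of the 5, at 5629, 6552 and 5712 CPM in Touchdome replicates 1, 2 and 3, 8106 to 8996 CPM in HF and 7147 to 10090 CPM in IFE. Values of the 5 Hedgehog genes that Touchdome replicate 3 moves are also given without it. IFE replicate 2 differed more from IFE replicates 1 and 3 (chi-square per degree of freedom 73.6 and 69.5) than those did from each other (21.2). Among the IFE libraries, Boc, Cdon and Sufu were lowest in IFE replicate 2, and Smo was highest.

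**Figure D1:**
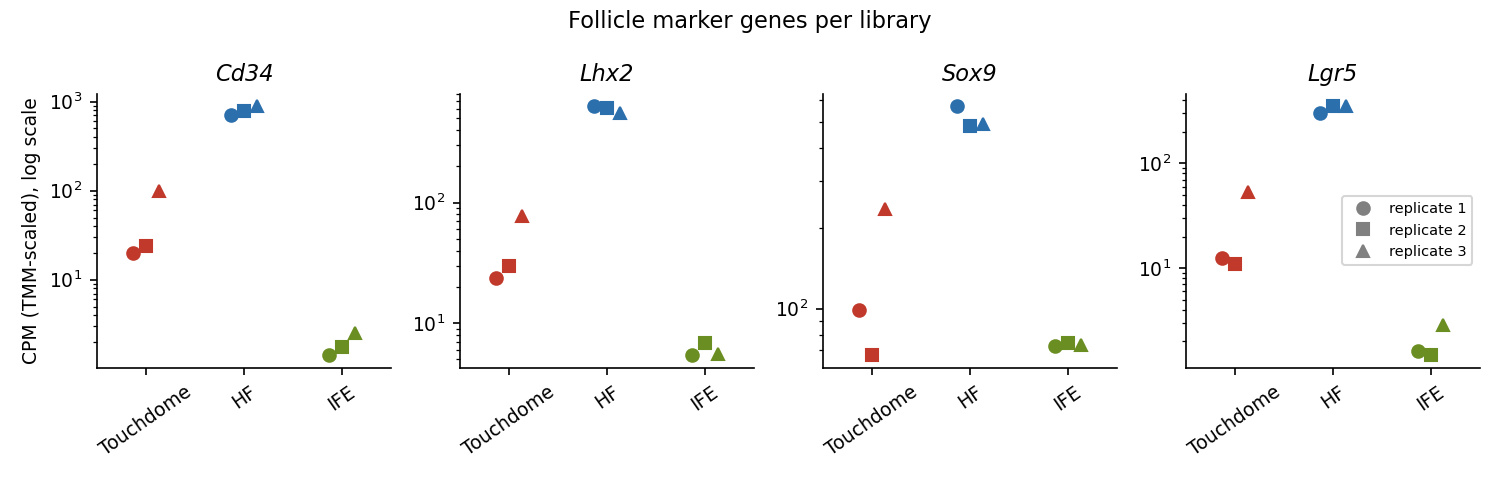
CPM (TMM-scaled, log axis) of the follicle marker genes Cd34, Lhx2, Sox9 and Lgr5 in each library of Touchdome, HF and IFE, with the replicate number as the symbol. Touchdome replicate 3 (triangle) lies above the other Touchdome libraries for these 4 genes and below every HF library, and Krt15, the other follicle marker, is not drawn.

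Hedgehog ligands bind Patched receptors on the receiving cell, which lifts the block that Patched keeps on Smoothened. BOC and CDON, a pair of related membrane proteins with immunoglobulin and fibronectin repeats, and GAS1, a lipid-anchored protein, bind the ligand beside Patched and help it signal. Active Smoothened in the primary cilium frees GLI transcription factors from SUFU, and GLI proteins turn on target genes that include Gli1, Ptch1 and Hhip. In skin the pathway is known for its part in hair follicle growth and in touch domes, where nerves are a source of ligand.

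The mRNAs of the co-receptors differed between the populations, and those of Smo and Sufu did not pass the test in any comparison. In Touchdome, 3 of the 5 genes were lower than in HF and 0 were higher, at an adjusted p under 0.05 in edgeR's quasi-likelihood test (1 higher, Smo, and 3 lower at an unadjusted p under 0.05). Among all genes tested, 24.6% were called in that comparison, 11.8% as higher and 12.8% as lower. Against IFE, 1 of the 5 genes, Gas1, was higher in Touchdome and 0 were lower (the same 1 and 0 at an unadjusted p under 0.05), where 1.30% of all genes were called, 1.22% as higher and 0.0798% as lower. In HF, 3 of the 5 genes were higher than in IFE and 0 were lower (3 and 0 at an unadjusted p under 0.05), where 33.0% of all genes were called, 17.1% as higher and 16.0% as lower. DESeq2 and limma on log2(TPM + 1) gave the same counts of called genes for the 5 in all 3 comparisons. Without Touchdome replicate 3 the counts were 3 against HF and 0 against IFE.

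The median log2 fold change of the 5 genes was -0.86 for Touchdome over HF, 0.11 for Touchdome over IFE and 0.88 for HF over IFE, against medians of -0.004, 0.005 and 0.004 over all genes tested. The 3 comparisons share libraries, so their values are not independent of each other. In these bulk samples, fewer cells of a type and less RNA per cell cannot be told apart.

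**Figure D2:**
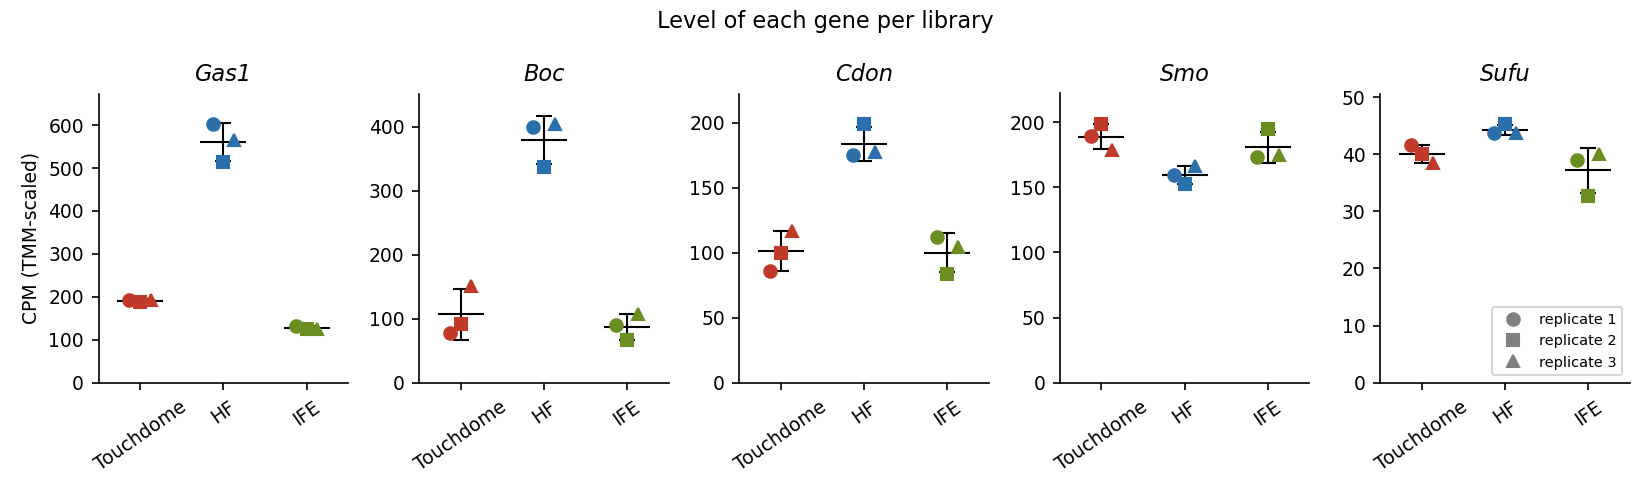
CPM (TMM-scaled) of Gas1, Boc, Cdon, Smo and Sufu in each library of Touchdome, HF and IFE. Symbols give the replicate number, long bars the group mean and error bars the SD over 3 libraries. Every HF library lies above every Touchdome and IFE library for Gas1, Boc and Cdon, and Gas1 in Touchdome (187 to 193 CPM) lies between the HF and IFE libraries.

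Gas1 (ENSMUSG00000052957) encodes the lipid-anchored co-receptor, first named for its induction in growth-arrested cells. Its level was 193, 187 and 193 CPM in the Touchdome libraries (replicates 1, 2 and 3), against 601.5, 514 and 566 CPM in HF and 133, 124 and 124 CPM in IFE. No library of one group overlapped another group, and the SD within Touchdome was 3.53 CPM around a mean of 191 CPM. Gas1 fell in Touchdome relative to HF by 1.55 on the log2 scale (SE 0.11, adjusted p = 8.17e-07, edgeR), so that HF had 2.93-fold the Touchdome level (95% interval 2.49 to 3.44). Touchdome exceeded IFE by 0.59 on the log2 scale (SE 0.11, adjusted p = 0.0148, edgeR), a ratio of 1.5 with a 95% interval of 1.28 to 1.76. In HF it was higher than in IFE by 2.14 ± 0.11 (SE, adjusted p = 3.94e-08, edgeR), or 4.41-fold.

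The size of the Touchdome difference from IFE was nearly the same without Touchdome replicate 3 (log2 fold change 0.58) and without IFE replicate 3 (0.57), but the call was then lost (adjusted p = 0.0528 and 0.0799, edgeR). With the replicate block the log2 fold change was 0.59 (adjusted p = 0.0129), and the count of all genes called in Touchdome against IFE was 349 in place of 196. By rank, Gas1 was the gene with the 1935th highest log2 fold change of 15046 in Touchdome over IFE, and the 1074th in HF over IFE.

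Gas1 had fractional expected counts, from 1764.84 in IFE replicate 2 to 13162.11 in HF replicate 1, so some reads were shared with another gene. In the GENCODE M21 annotation, Gm48488, a long noncoding RNA gene on the opposite strand, overlaps it. Gm48488 held 2.98% to 7.50% of the Gas1 count in a library, and since the strand setting is not given in the sources used here, reads of the overlap cannot be told apart. With the counts of both genes summed, the log2 fold changes were -1.53 for Touchdome over HF, 0.57 for Touchdome over IFE (adjusted p = 0.0172, edgeR) and 2.10 for HF over IFE.

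Promoter windows from RefSeq (GRCm38.p6, from 250 bases before to 50 after the gene's start) were found for 4 of the 5 genes: Cdon, Gas1, Smo and Sufu. That build is not the one named by the submitters, and the counts used no window. The windows of Gas1, which was called in all 3 comparisons, and of Smo, which was called in none, are shown 5′ to 3′. Capitals mark a GC box (GGGCGG) or a CCAAT box (CCAAT) on either strand. The Gas1 window is chr13:60177486-60177785 on the minus strand and lies within the span of Gm48488, and the Smo window is chr6:29735247-29735546 on the plus strand.
Gas1: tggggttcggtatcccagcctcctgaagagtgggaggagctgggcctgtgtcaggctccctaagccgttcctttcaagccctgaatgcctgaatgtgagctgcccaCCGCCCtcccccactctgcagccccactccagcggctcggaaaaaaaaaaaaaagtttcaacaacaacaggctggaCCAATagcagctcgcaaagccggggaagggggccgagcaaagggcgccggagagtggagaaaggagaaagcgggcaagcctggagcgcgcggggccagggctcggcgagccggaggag
Smo: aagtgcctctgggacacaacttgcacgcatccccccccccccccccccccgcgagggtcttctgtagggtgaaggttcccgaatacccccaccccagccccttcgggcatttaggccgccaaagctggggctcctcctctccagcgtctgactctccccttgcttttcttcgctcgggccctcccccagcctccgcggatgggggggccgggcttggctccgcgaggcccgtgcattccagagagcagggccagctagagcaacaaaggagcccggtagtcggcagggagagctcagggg

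The Gas1 and Sufu windows each held 1 GC box and 1 CCAAT box, the Cdon window held 1 CCAAT box and no GC box, and the Smo window neither. With 4 windows and none for Boc, a relation of these motifs to the differences was not tested. Of 32851 windows of the same length, 35.7% held a GC box and 37.4% a CCAAT box on either strand. A GLI site (TGGGTGGTC, either strand) was in 0.253% of all windows and in none of the 4 windows, and a TATA box (TATAAA, either strand) in 13.6% of all windows and in none of the 4. The motifs searched do not overlap each other in their letters in these windows. The Gas1 and Smo windows both held 17 CG dinucleotides, Sufu 12 and Cdon 3, against a median of 7 over all windows (quartiles 3 and 20).

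Boc (ENSMUSG00000022687) encodes a co-receptor that binds Hedgehog ligands through its fibronectin repeats. Its level was 77.1, 91.8 and 152 CPM in the Touchdome libraries (replicates 1, 2 and 3), against 399.6, 337 and 404 CPM in HF and 90.2, 66.3 and 107 CPM in IFE. Touchdome replicate 3 lay above all IFE libraries, and the other Touchdome libraries lay within the IFE range. Boc fell in Touchdome relative to HF by 1.83 on the log2 scale (SE 0.25, adjusted p = 0.000446, edgeR), so that HF had 3.56-fold the Touchdome level (95% interval 2.41 to 5.26). In HF it was higher than in IFE by 2.11 ± 0.25 (SE, adjusted p = 0.000117, edgeR), or 4.33-fold.

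Between Touchdome and IFE, Boc did not pass (log2 fold change 0.28, 95% interval -0.27 to 0.83, adjusted p = 0.806, edgeR). Without Touchdome replicate 3 that value was -0.06 (adjusted p = 0.996), and the difference of Touchdome from HF was -2.17 (adjusted p = 7.06e-06). Without IFE replicate 2, Boc was at 0.11 in Touchdome over IFE (adjusted p = 0.954, edgeR).

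Cdon (ENSMUSG00000038119) encodes the relative of BOC, which also acts in muscle differentiation. Its level was 86.1, 100.0 and 117 CPM in the Touchdome libraries (replicates 1, 2 and 3), against 175, 199 and 178 CPM in HF and 112, 83.4 and 105 CPM in IFE. The HF libraries lay above all others, and Touchdome and IFE overlapped. Cdon fell in Touchdome relative to HF by 0.86 on the log2 scale (SE 0.14, adjusted p = 0.00064, edgeR), so that HF had 1.82-fold the Touchdome level (95% interval 1.47 to 2.25). In HF it was higher than in IFE by 0.88 ± 0.14 (SE, adjusted p = 0.000381, edgeR), or 1.83-fold. Between Touchdome and IFE it did not pass (0.01, 95% interval -0.29 to 0.32, adjusted p = 0.993). That interval allows a difference of up to 1.25-fold in the direction of Touchdome. Without Touchdome replicate 3 the value was -0.11 (adjusted p = 0.992), without IFE replicate 2 it was -0.10 (adjusted p = 0.890), and the difference of Touchdome from HF without Touchdome replicate 3 was -0.98 (adjusted p = 0.000488).

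Smo (ENSMUSG00000001761) encodes the seven-pass transducer on which the pathway converges. Its level was 189.5, 198 and 179 CPM in the Touchdome libraries (replicates 1, 2 and 3), against 159, 153 and 166 CPM in HF and 173, 194 and 175 CPM in IFE. The Touchdome libraries lay above the HF libraries and overlapped those of IFE. The log2 fold change was 0.24 for Touchdome over HF (95% interval 0.02 to 0.47, adjusted p = 0.108, edgeR), 0.06 for Touchdome over IFE (-0.16 to 0.29, adjusted p = 0.923) and -0.18 for HF over IFE (-0.40 to 0.04, adjusted p = 0.200). These intervals exclude a difference of the size seen for Gas1 or Boc between HF and IFE. On the TPM scale (relative abundance per transcript length), Touchdome at 82.9 to 91.5 TPM lay above HF (74.3 to 79.5 TPM) and IFE (72.8 to 76.8 TPM) with no overlap, and limma on log2(TPM + 1) did not call either difference (adjusted p = 0.317 and 0.560).

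Sufu (ENSMUSG00000025231) encodes the protein that holds GLI factors inactive. Its level was 41.7, 39.96 and 38.5 CPM in the Touchdome libraries (replicates 1, 2 and 3), against 43.7, 45.2 and 43.7 CPM in HF and 38.9, 32.6 and 39.98 CPM in IFE. In CPM the HF libraries were the highest, and Touchdome and IFE overlapped. In TPM, Touchdome and HF also overlapped, with Touchdome replicate 1 at 21.56 TPM and HF replicate 2 at 20.17 TPM. The log2 fold change was -0.14 for Touchdome over HF (95% interval -0.40 to 0.12, adjusted p = 0.450, edgeR), 0.11 for Touchdome over IFE (-0.15 to 0.37, adjusted p = 0.861) and 0.25 for HF over IFE (-0.01 to 0.51, adjusted p = 0.133). The upper bound for HF over IFE corresponds to 1.42-fold. Without IFE replicate 2, Sufu was at 0.02 for Touchdome over IFE (adjusted p = 0.987, edgeR) and 0.16 for HF over IFE (adjusted p = 0.329).

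**Figure D3:**
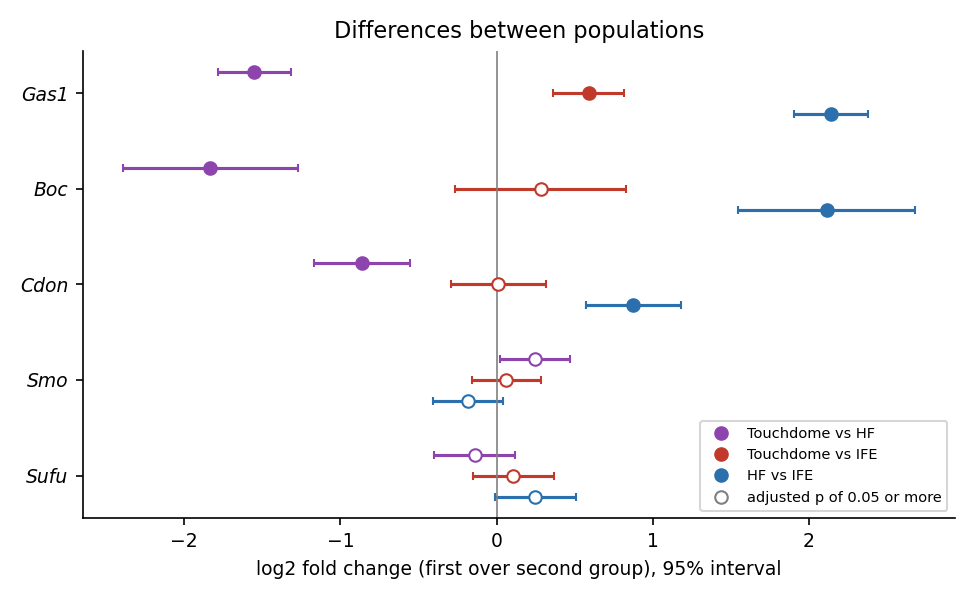
Log2 fold changes (horizontal axis) with 95% intervals for Gas1, Boc, Cdon, Smo and Sufu in Touchdome over HF, Touchdome over IFE and HF over IFE, from edgeR. Filled points have an adjusted p under 0.05. The co-receptors lie to the left for Touchdome over HF and to the right for HF over IFE, Gas1 alone is filled for Touchdome over IFE, and all points of Smo and Sufu are open.

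The order of the 5 genes, compared as mean TPM, differed between the populations. In Touchdome it was Gas1 (115 ± 2.91 TPM), Smo (86.8 ± 4.37), Boc (40.9 ± 15.5), Cdon (23.2 ± 4.44) and Sufu (19.6 ± 1.79, SD, n = 3), and the last neighbours, Cdon and Sufu, overlapped between libraries. The order in HF was Gas1 (360.4 ± 48.9 TPM), Boc (152 ± 14.9), Smo (77.2 ± 2.65), Cdon (44.3 ± 2.94) and Sufu (21.9 ± 1.53), with no overlap between neighbours. In IFE, Smo (75.1 ± 2.05 TPM) and Gas1 (69.4 ± 6.92) overlapped at the top. Boc (30.6 ± 8.12), Cdon (21.4 ± 5.25) and Sufu (16.7 ± 3.6) followed, each overlapping the next of these 3. Overlap here compares ranges over the libraries of a group. Within each IFE library the order was the same, with Gas1 at 0.987, 0.822 and 0.966 of Smo in replicates 1, 2 and 3. Boc thus stood above Smo in every HF library and below it in every Touchdome and IFE library. Among genes with a mean of at least 1 TPM, Gas1 lay above 91.4% in Touchdome, 97.7% in HF and 84.2% in IFE, and Sufu above 51.4%, 54.1% and 47.6%.

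Summed over Gas1, Boc and Cdon, co-receptor mRNA amounted to 159.7, 175 and 203 TPM in Touchdome replicates 1, 2 and 3, against 618, 502 and 551.5 TPM in HF and 136, 99.6 and 129 TPM in IFE. The 3 groups did not overlap, and each exact two-sided permutation test gave p = 0.1 (adjusted p = 0.1 over 3 comparisons), the smallest that 3 libraries against 3 allow. Without Touchdome replicate 3, the mean difference of Touchdome was -389.8 TPM from HF and 46.0 TPM from IFE. Without IFE replicate 2, the mean difference of Touchdome from IFE was 46.96 TPM. Per unit of Smo mRNA, the sum was 1.86 to 2.45 in Touchdome, 6.76 to 7.95 in HF and 1.32 to 1.77 in IFE. Per unit of mRNA of the receptor gene Ptch1, which is also a target of the pathway, it was 14.4 to 16.4 in Touchdome, 16.9 to 33.8 in HF and 20.6 to 23.2 in IFE. The Touchdome libraries were thus the lowest by that ratio, which was not tested.

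Gas1 made up the greater part of the sum in every library. Its share of co-receptor TPM was 70.0%, 66.8% and 57.5% in Touchdome replicates 1, 2 and 3, 67.1%, 63.6% and 62.9% in HF and 55.9%, 62.3% and 54.6% in IFE. The difference in mean share was 0.212 percentage points for Touchdome minus HF (p = 1.0), 7.16 for Touchdome minus IFE (p = 0.2) and 6.94 for HF minus IFE (p = 0.1; exact two-sided permutation tests, adjusted p = 1.0, 0.3 and 0.3). Without Touchdome replicate 3, the difference of Touchdome from HF was 3.85 percentage points. The share of Boc was highest in Touchdome replicate 3 among the Touchdome libraries, at 28.8% against 18.1% and 20.3% in replicates 1 and 2. The share of Cdon was 11.9% to 13.7% in Touchdome, 6.70% to 9.41% in HF and 16.1% to 19.6% in IFE, with no overlap.

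**Figure D4:**
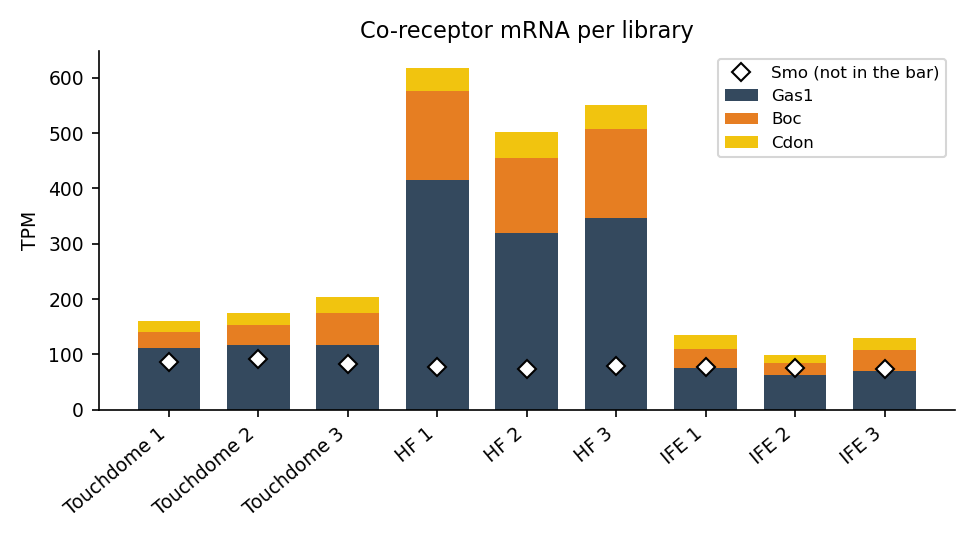
TPM of Gas1, Boc and Cdon stacked for each library of Touchdome, HF and IFE, with Smo as open diamonds that are not part of the bar. The HF bars reach 502 to 618 TPM, the Touchdome bars 159.7 to 203 TPM and the IFE bars 99.6 to 136 TPM, while Smo stays between 72.8 and 91.5 TPM.

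The Touchdome libraries spread more in Boc and Cdon than in Gas1. On the log2 CPM scale, with the IFE mean at 0% and the HF mean at 100%, Gas1 lay at 28.2%, 26.1% and 28.4% in Touchdome replicates 1, 2 and 3. Boc lay at -7.46%, 4.31% and 38.2%, and Cdon at -23.2%, 1.29% and 26.6%. Over the 1710 genes that were higher in HF than in IFE by a log2 fold change of at least 1, the median position was 21.5%, 20.0% and 47.0% in the same libraries. Boc and Cdon were therefore highest in the library with the highest median position and the most Cd34, Lhx2, Sox9 and Lgr5 RNA, and Gas1 stood between 26.1% and 28.4% in all 3. The SD of Cdon was 15.4 CPM in Touchdome and 14.9 CPM in IFE, and that of Boc 39.5 and 20.4 CPM. Cdon, with a log2 fold change of 0.88 for HF over IFE, was not among the 1710 genes. Its percentages span a smaller difference than those of Boc (2.11) and Gas1 (2.14). The part of follicle RNA in these values was not tested.

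**Figure D5:**
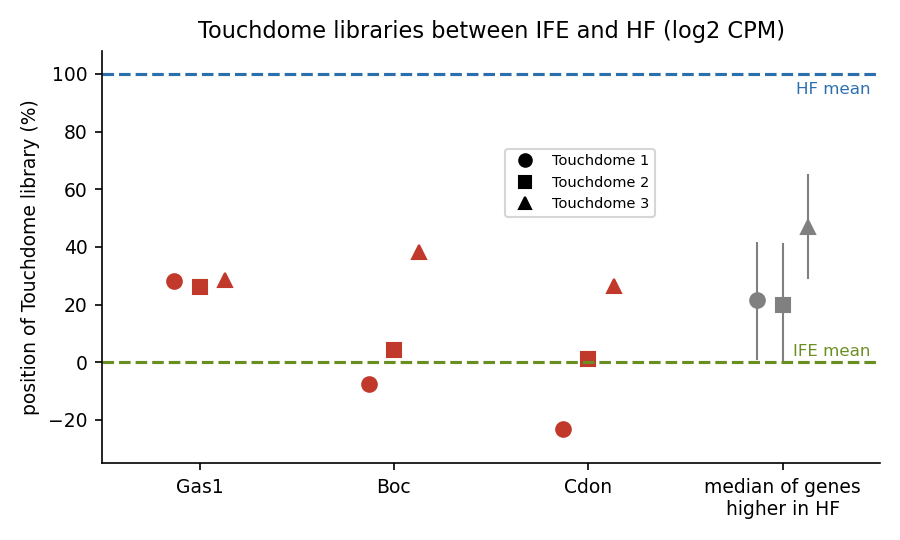
Position of each Touchdome library between the IFE mean (0%) and the HF mean (100%) on the log2 CPM scale for Gas1, Boc and Cdon, with the median and quartiles of the 1710 genes higher in HF in grey. The 3 libraries lie together for Gas1, and Touchdome replicate 3 (triangle) lies above the others for Boc, Cdon and the median.

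Fibroblasts also express co-receptor genes, and the fibroblast genes did not move together. Of 7 fibroblast genes, 6 had counts in Touchdome, 5 in HF and 6 in IFE, and their summed level was 45.6 to 90.8 CPM in Touchdome, 62.2 to 87.1 CPM in HF and 0.844 to 2.95 CPM in IFE. In HF the sum was mostly Col1a2, at 54.1 to 73.3 CPM, against 15.3 to 21.5 CPM in Touchdome. Dcn was at 16.4 to 25.3 CPM in Touchdome but 0 to 0.0655 CPM in HF, and Col3a1 at 1.43 to 19.7 CPM in Touchdome but 0 to 0.786 CPM in HF. Lum had no counts in Touchdome and HF, and Dpt none in HF and IFE. Col1a1 was at 31.1 CPM in Touchdome replicate 3, against 2.43 and 3.58 CPM in replicates 1 and 2. Pdgfra, a defining fibroblast receptor gene, stood at 0.447 to 1.66 CPM in Touchdome, 0.503 to 1.58 CPM in HF and 0 to 0.303 CPM in IFE. The summed level of 4 dermal papilla genes was 8.55 to 13.3 CPM in Touchdome, 2.88 to 4.22 CPM in HF and 14.3 to 20.05 CPM in IFE. Most of it in Touchdome and IFE was Rspo3 (7.31 to 13.1 and 13.99 to 19.5 CPM, and 0 to 0.320 CPM in HF), while Crabp1 was at 0 to 0.996 CPM in Touchdome, 2.69 to 4.11 CPM in HF and 0.114 to 0.281 CPM in IFE. The 6 melanocyte genes summed to 16.0 to 50.4 CPM in Touchdome, 98.6 to 129 CPM in HF and 9.92 to 14.3 CPM in IFE. In HF that was mostly Mitf (90.2 to 113 CPM), while Dct, at 13.7 CPM in Touchdome replicate 3 and 3.02 to 14.4 CPM in HF, overlapped between the groups. The part of these cells in the co-receptor levels was not tested.

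Other genes of the pathway were read from lists. The ligand genes Shh, Ihh and Dhh did not pass the filter on low counts. Shh had 0, 0 and 6 counts in Touchdome replicates 1, 2 and 3, 8, 2 and 20 counts in HF and 0, 0 and 2 counts in IFE. Of 6 genes of ligand release, 4 were tested. Scube3, which encodes a secreted protein that helps to free the ligand, was called in each comparison, at 2.62 ± 1.86 CPM in Touchdome, 7.94 ± 3.52 CPM in HF and 0.331 ± 0.171 CPM in IFE (SD, n = 3). Its call was lost in 8 of 17 alternatives for Touchdome over HF (adjusted p up to 0.191) and in 11 of 18 for Touchdome over IFE (up to 0.487). Leaving out Touchdome replicate 1 ended both calls (adjusted p = 0.153 and 0.0702, edgeR), and so did leaving out replicate 1 or 3 of IFE or of HF. Disp1, which encodes a transporter that releases the ligand, was higher in HF than in IFE by 0.63 ± 0.19 (SE, adjusted p = 0.0202, edgeR), a call lost in 6 of 17 alternatives (adjusted p up to 0.0677).

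Of the 3 GLI factor genes, 3 were lower in Touchdome than HF (12.8% of all genes), 2 were higher in Touchdome than in IFE (1.22% of all genes), and 3 were higher in HF than in IFE (17.1% of all genes). Gli2 stood at 44.2 ± 9.06 CPM in Touchdome, 133 ± 12.0 CPM in HF and 3.595 ± 0.652 CPM in IFE (SD, n = 3) and was called in all 3 comparisons. Gli1 was higher in Touchdome than in IFE by 5.11 ± 0.37 (SE, adjusted p = 0.000208, edgeR), where Gas1 differed by 0.59, and its lower level in Touchdome than in HF (-0.98, adjusted p = 0.0381) was lost in 9 of 17 alternatives (adjusted p up to 0.141). Leaving out Touchdome replicate 1 or 3, replicate 2 or 3 of IFE, or replicate 1 or 3 of HF ended it. Hhip, a target gene whose product binds the ligand, averaged 0.360 ± 0.204 CPM in Touchdome and 19.6 ± 2.79 CPM in HF (SD, n = 3). Ptch1 was lower in Touchdome than in HF by 0.88 on the log2 scale (adjusted p = 0.00387, edgeR) and higher than in IFE by 0.97 (adjusted p = 0.0230). The call against IFE was lost in 7 of 18 alternatives, which included leaving out Touchdome replicate 2 or 3 or each IFE library (adjusted p up to 0.114).

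Of 22 genes that act between Smoothened and the GLI factors, 6 were lower than in HF and 0 higher in Touchdome libraries (6 and 0 at an unadjusted p under 0.05; 6 and 0 with DESeq2, 4 and 0 with limma). That was 27.3% of the list, where 24.6% of all genes were called and 12.8% were lower, and 4 to 6 were lower with 1 library left out. Against IFE, 0 were higher and 0 lower in Touchdome with edgeR, DESeq2 and limma, and likewise at an unadjusted p under 0.05. In HF, 8 were higher than in IFE and 0 lower (8 and 1 at an unadjusted p under 0.05), or 36.4% of the list, where 33.0% of all genes were called and 17.1% were higher. Without HF replicate 3 the count was 5, and Stk36 and Gpr161, named after their values were seen, lost their calls in 8 and 7 of 17 alternatives. By the smallest p, the called genes were led by Prkacb, a catalytic subunit of protein kinase A, Kif7, a kinesin of the cilium tip, Iqce and Btrc. Prkacb stood at 38.6 ± 3.12 CPM in Touchdome, 86.3 ± 6.78 CPM in HF and 33.1 ± 4.49 CPM in IFE. Kif7 stood at 9.66 ± 0.556, 28.8 ± 7.55 and 9.07 ± 2.52 CPM in the same order (SD, n = 3). The call of Iqce in Touchdome against HF was lost with limma on TPM (adjusted p = 0.0647 and 0.0717).

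Of 13 genes of ciliary transport, 4 were lower than in HF and 0 higher in Touchdome libraries (7 and 0 at an unadjusted p under 0.05; 5 and 0 with DESeq2, 2 and 0 with limma). That was 30.8% of the list, against the same 24.6% and 12.8% of all genes. With 1 library left out, the count was 3 (without Touchdome replicate 1) to 7 (without IFE replicate 2). Against IFE, 0 were higher and 0 lower with edgeR, DESeq2 and limma (2 higher and 0 lower at an unadjusted p under 0.05). In HF, 7 were higher than in IFE and 1, Ift52, was lower, a call lost in 7 of 17 alternatives (adjusted p up to 0.446). Together these were 61.5% of the list, where 33.0% of all genes were called, and without HF replicate 3 they numbered 5. Tulp3, which encodes an adaptor for ciliary membrane proteins, stood at 27.6 ± 3.28 CPM in Touchdome, 50.6 ± 3.53 CPM in HF and 23.1 ± 3.58 CPM in IFE, and Kif3a, a kinesin subunit, at 17.5 ± 1.94, 30.9 ± 2.97 and 16.4 ± 2.89 CPM in the same order (SD, n = 3). Both were called in HF over IFE and in Touchdome against HF.

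The genes whose pattern was most like each co-receptor were ranked by the root-mean-square difference of centred log2 CPM over the 9 libraries, among 9667 other genes with a mean of at least 10 CPM. This is a description of these libraries. For Gas1 the nearest were Abtb2 (0.125), Map1s (0.148), Filip1l (0.153) and Camk1 (0.191). For Boc they were Iqsec1 (0.103), Tpst1 (0.128), Efnb2, an ephrin ligand gene (0.158), and Npnt, a matrix protein gene of the follicle bulge (0.159). For Cdon they were Specc1l (0.085), Prickle2, a planar polarity gene (0.096), Tacc2 (0.105) and Aplp2 (0.107). Boc ranked 95th in likeness to Gas1 and Gas1 85th in likeness to Boc, each at 0.329. Cdon was farther from both, at 0.539 from Gas1 and 0.580 from Boc, and nearer to Sufu (0.353). The measure is not scaled for the size of a difference. For HF over IFE the log2 fold change of Cdon was 0.88, against 2.11 for Boc and 2.14 for Gas1. Efnb2 stood at 210.0 ± 77.4 CPM in Touchdome, 803 ± 86.7 CPM in HF and 182 ± 40.7 CPM in IFE, and Abtb2 at 17.9 ± 2.08, 50.6 ± 6.70 and 10.8 ± 0.951 CPM in the same order (SD, n = 3).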

How the data were processed

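Poly(A) RNA was read as pairs of 150 nt from 50 ng of total RNA per library, per the labels' protocols. The authors deposited expected counts, which are unscaled read numbers estimated for each gene, and TPM. The deposited TPM values sum to about 1000000 in each library and keep no depth. STAR 2.7.9a, RSEM 1.3.3, DESeq2 1.38.2 and mm39 are named in the submitters' processing notes without saying which step each served. Neither the annotation nor the strand setting is stated in the sources used here. Expected counts were whole (within 1e-09) in 92.5% to 94.6% of rows per library with rows at 0 included, and in 79.0% to 83.1% of rows above 0. Symbols came from GENCODE M21 and matched 52081 of 55357 identifiers.

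Expected counts were rounded and filtered with filterByExpr at a minimum count of 10 and a minimum total of 15, and 15046 genes remained. All comparisons used edgeR 4.0.16 (R 4.3.3), with its robust quasi-likelihood test, TMM factors and the 9 libraries in 1 fit, with Benjamini-Hochberg adjustment over all genes and a threshold of 0.05. Intervals are at 95%, and levels are mean ± SD over 3 libraries. Alternatives used DESeq2 1.42.0, limma 3.58.1 on log2(TPM + 1) or log2(TPM + 0.1), other filters and scaling, 2 groups only, the replicate block, and 1 library left out. A count of 0 allows up to 0.114 to 0.316 CPM (3 counts), for counting error only. Same-numbered Touchdome and IFE libraries deviated together from their group means (r across genes of 0.146, 0.173 and 0.203), and pairs with HF did not (-0.026 to 0.070). From these correlations the numbers were read as possible pairs for Touchdome and IFE only. The main fit and the permutation tests used no pairs. Pairing entered only as the replicate block, an alternative that in the fit of all 9 libraries also tied the HF libraries. No pair of libraries in a group agreed within sampling noise (chi-square per degree of freedom 16.8 to 73.6). The pairs with IFE replicate 2 had the highest values, 73.6 and 69.5, and all other pairs lay at 16.8 to 26.

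The named genes are the 5 members, up to 4 called members of each pathway list with the smallest p per comparison, and the 4 nearest genes in pattern of each member called. The members, lists and rules were chosen with earlier results of these data known. Counts over the list of ligand-binding receptors are not reported here.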

Additional observations from a re-analysis of the deposited data

How the results depend on the processing

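The calls of Boc, Cdon and Gas1 between HF and each other group kept their direction and stayed under an adjusted p of 0.05 in all 17 alternatives (18 for Gas1), and Smo and Sufu passed in none. In Touchdome against IFE, Gas1 was called in all alternatives except without Touchdome replicate 3 or IFE replicate 3. With 1 library left out, the number of the 5 genes called in Touchdome against IFE was 0 to 1 and the log2 fold change of Gas1 was 0.57 to 0.62, that of Boc -0.0593 to 0.47 and that of Cdon -0.11 to 0.12. For HF over IFE, Smo turned to 0.0387 with limma on log2(TPM + 1) and to 0.0391 on log2(TPM + 0.1), with an adjusted p of 0.820 and 0.818. The cause was not tested. The Gas1 share, for Touchdome minus HF, was -1.34 percentage points with CPM in place of TPM, and -2.40 to 3.85 with 1 library left out. The replicate block changed no call of the 5 genes, and with it Boc was at 0.26 (adjusted p = 0.627) in Touchdome over IFE. With only those 2 groups and the block, chosen after seeing the data, Gas1 was at 0.60 (adjusted p = 0.00805). The count of all genes called in Touchdome against IFE, 196, was 310 with no filter, 530 with DESeq2, 105 with 2 groups only, 349 with the replicate block, 506 with both, 71 and 121 with limma, and 112 and 128 without IFE replicates 1 and 3. The alternative with Gm48488 added to Gas1 was also chosen after seeing the data. For Smo and Sufu, differences within the intervals given above could not be resolved with 3 libraries a group.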
